A study of Mus musculus with 2 samples.

Results

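Macrophages and dendritic cells are a small resident population of the pancreatic islet, and their transcripts appear in RNA from whole islets beside those of the endocrine cells. A set of 45 genes that mark these cells was examined out of 18193 genes named on the array. The genes were taken by symbol from a list of complement, Fc receptor, scavenger receptor, pan-leukocyte and class II genes, and each symbol had at least 1 probe set annotated to that gene alone, giving 79 probe sets. The list was drawn up with earlier results of these arrays known, so its direction is not independent evidence.

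Total RNA of adult mouse islets was hybridised to Affymetrix arrays, 1 array for wildtype control islets and 1 array for islets with a b cell-specific ZBTB20 knockout, ZBTB20 being a zinc finger transcription factor. Mice of both groups were 2 to 3 months old, of mixed background, and the controls were littermates. Both preparations went through collagenase digestion, hand-picking and a night in culture, and 6 µg of RNA went into each biotin-labelled target. The Cre driver, the deleted part of the gene and the number of mice behind an array are not given in the sources used here. With 1 array per group there is no replicate error and no test, and each ratio compares 2 RNA preparations.

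The targeted gene did not check the label. Zbtb20 had 9 probe sets, 5 lower and 4 higher in the knockout array, with log2 ratios from -0.87 to 0.54, and the array is therefore called knockout-labelled. The tissue label was borne out by the hormone genes, with control and knockout-labelled signals of 9194 and 7786 for the insulin gene Ins2, 11215 and 10292 for the glucagon gene Gcg, and 9661 and 9770 for the somatostatin gene Sst. The pancreatic polypeptide gene Ppy was at 12702 and 8095 (log2 ratio -0.65) and the amylin gene Iapp at 15324 and 14244. Values are MAS5 signals, linear intensities summarised over the probes of a probe set. A signal at or under the median of its array (21.6 in control, 21.7 in knockout-labelled) was treated as not measured and raised to that floor before a ratio was taken.

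As background, tissue macrophages engulf dying cells and immune complexes. Complement C1q tags such targets, Fc receptors bind antibody on them, and scavenger receptors take up modified proteins and sugars. Activating Fc receptors signal through the adaptor encoded by Fcer1g, and related receptors such as that of Trem2 through the adaptor encoded by Tyrobp. The cargo is digested by lysosomal proteases, and peptides from it are shown to T cells on class II molecules, which islet macrophages and dendritic cells are known to carry.

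Most of these genes had a higher signal in the knockout-labelled islets, by a modest factor. Of the 45, 28 were above the floor on both arrays, 7 on 1 array only and 10 on neither. Of the 28, 24 had a ratio above 1 and 4 below it, against 49.8% above 1 among all 10450 genes measured that way, and their median log2 ratio was 0.55 beside -0.00014 for all genes. A ratio of 2-fold or more was reached by 6 of the 35 genes above the floor on at least 1 array, where 1.82% of all such genes reached it, and none was 2-fold lower, beside 1.44% of all genes. Of these 6, Fcer1g and Itgb2 passed the floor only in the knockout-labelled array, which fixed their direction, and on both arrays the count was 4 of 28, beside 1.54% of all genes, with 0 lower, beside 1.34%. At 1.5-fold, 11 of the 28 genes were higher (6.04% of all genes) and 0 lower (5.74% of all genes).

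Of the 7 genes that passed the floor on 1 array only, Fcer1g, Fcgr3, Cybb and Itgb2 did so in knockout-labelled islets and Rac2, Cd83 and Cd86 in control, which makes 28 of 35 with a ratio above 1 (49.9% of all genes on at least 1 array). Such a gene must differ in the direction of the array it passed on, so the count was also taken with no floor. The deposited signal was then higher in the knockout-labelled array for 35 of all 45 genes and lower for 10, beside 49.5% higher over all 18193 genes. With a pseudocount of 16 in place of the floor, the median log2 ratio over all 45 genes was 0.36, beside 0 over all genes. The signals of the 45 genes summed to 2981 in control and 4412 in knockout-labelled islets, a factor of 1.48, and to a factor of 1.52 without the class II genes and Cd74. In RNA of whole islets, more cells of a type and more RNA per cell cannot be told apart, nor can fewer cells and less RNA per cell.

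The size of most ratios lay within what other genes showed. Every gene measured on both arrays was placed in 1 of 20 bins of mean signal, and the central 95% of log2 ratios was taken within each bin. Of the 28 genes, 6 lay above that range, namely Mrc1, C1qb, Lcp1, Tyrobp, Lgmn and Cd74, 22 lay within it and 0 below it. By construction 2.68% of all genes lay above it.

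**Figure D1:**
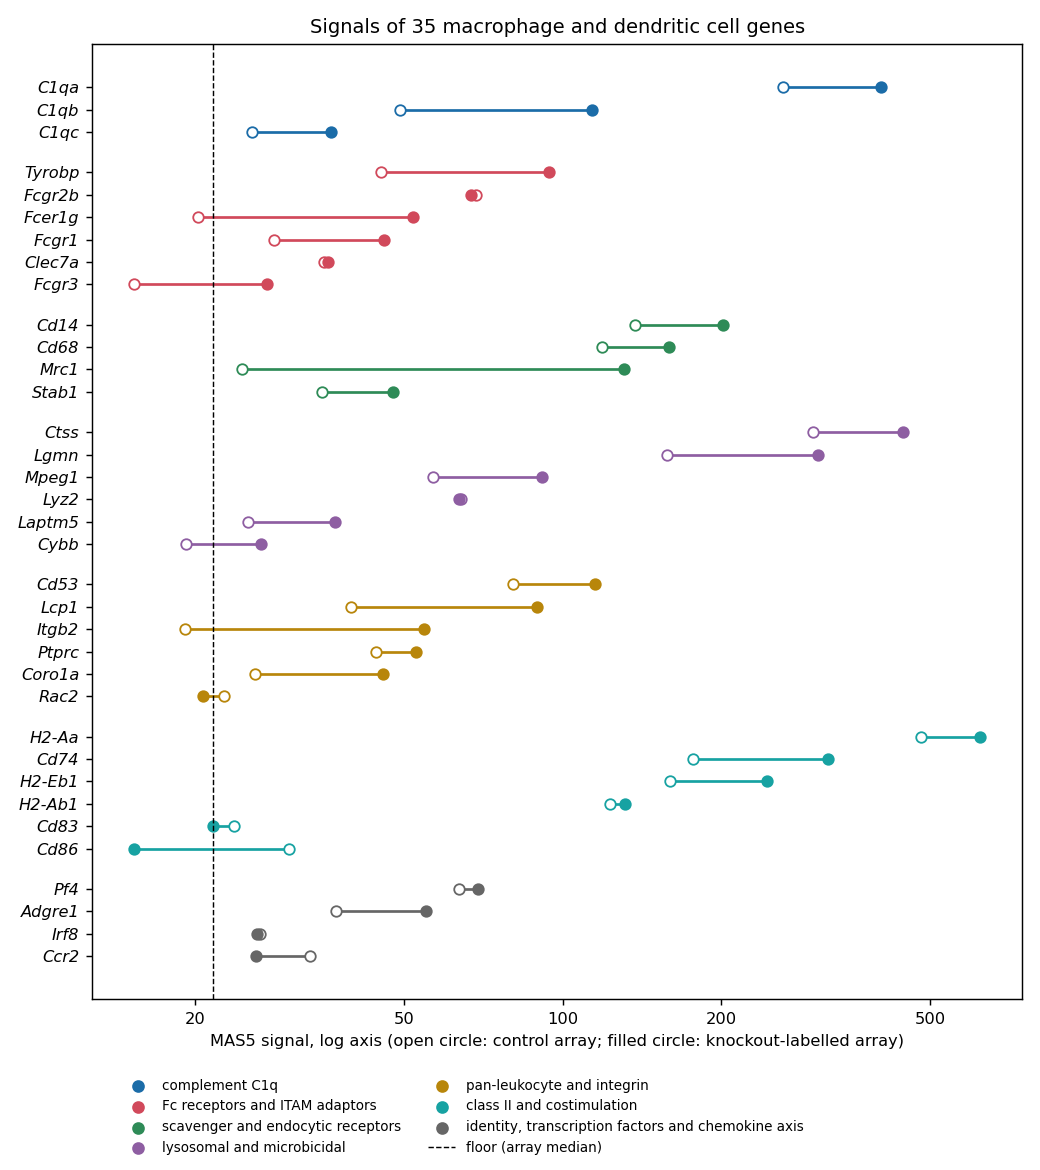
MAS5 signal (log axis) of the 35 macrophage and dendritic cell genes above the floor on at least 1 array, with an open circle for the control array, a filled circle for the knockout-labelled array and colours for roles. The filled circle lies to the right for 28 of the 35 genes, beside 49.9% of all such genes. Without the genes above the floor on 1 array only, whose direction the floor fixed, it does so for 24 of 28, beside 49.8%. The line of Mrc1, from 24.5 to 131, is the longest.

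**Figure D2:**
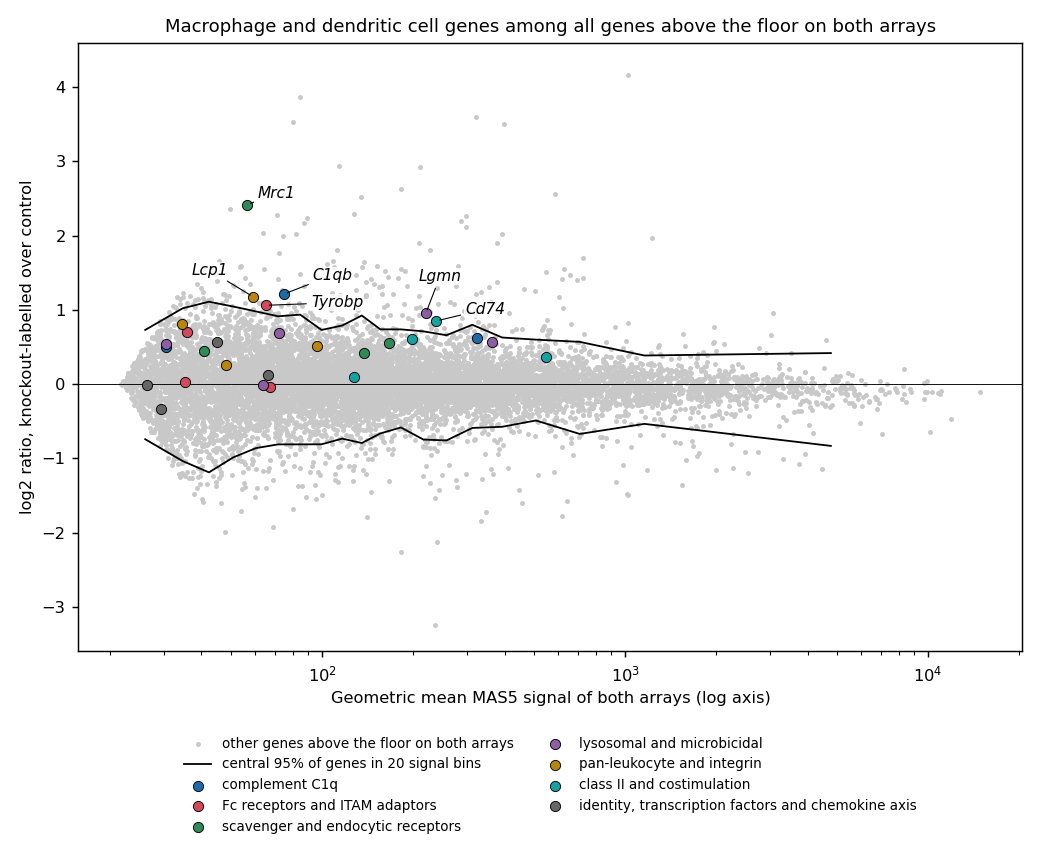
Log2 ratio of knockout-labelled over control against the geometric mean signal (log axis) for 10450 genes above the floor on both arrays (grey), with the 28 macrophage and dendritic cell genes in colour. The black lines bound the central 95% of genes of like signal, and the 6 named genes lie above the upper line.

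The 3 chains of complement C1q were higher together. C1qa went from 262 in control to 404 in knockout-labelled islets (1.54-fold), C1qb from 49.1 to 114 (2.32-fold) and C1qc from 25.6 to 36.3 (1.42-fold). All 3 ratios were above 1, and that of C1qb alone was outside the range of genes of like signal. C1qb also had probe set 1434366_x_at, at 35.7 and 44.0 with a log2 ratio of 0.30, and 1437726_x_at, at 8.3 and 41.7, which gave at least 0.95. The suffix _x_at marks probe sets whose probes can bind other transcripts. Other complement genes did not share the direction. Of 4 C1q partners and complement receptors above the floor on both arrays, 1 was higher (C3ar1, the C3a receptor, 24.0 and 25.9, named after its values were seen) and 3 were lower, with the largest ratio for Cfb, complement factor B, from 83.6 to 51.7 (log2 ratio -0.69).

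The 2 ITAM adaptors, short membrane proteins that carry the signalling motif for Fc and related receptors, were among the largest ratios. Tyrobp went from 45.1 to 94.2, 2.09-fold higher. Fcer1g was under the floor in control islets at 20.2 and reached 51.8 in knockout-labelled islets, at least 2.40-fold higher, a direction fixed by the floor. The receptors of this group were less uniform. Fcgr1, the high-affinity IgG receptor, was at 28.2 and 45.8 in its brighter probe set (1.62-fold) and at 24.2 and 23.1 in its other (log2 ratio -0.067). Fcgr3, an activating IgG receptor, was at 15.3 and 27.4, a bound of at least 1.27-fold.

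Fcgr2b, the inhibitory IgG receptor, gave nearly equal signals of 68.3 and 66.8 in its brightest probe set. Its other probe sets were under the floor in the control array, and 3 of them passed it in the knockout-labelled array, where 1455332_x_at reached 47.6. Clec7a, the beta-glucan receptor Dectin-1, was also level at 35.1 and 35.7. Trem2, a lipid receptor that signals through Tyrobp, was under the floor on both arrays in each of its 2 probe sets, at 3.3 and 18.8 in the brighter. Downstream, 2 of 4 measured genes of the Fc receptor and ITAM signalling list were higher and 2 lower. None of the 4 was at 2-fold, beside 1.54% of all genes higher by that much and 1.34% lower. The largest ratio in that list was that of Ptpn6, the phosphatase SHP-1, at 84.9 and 118.

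Mrc1, the macrophage mannose receptor, had the largest ratio of all 45 genes. Its single probe set 1450430_at went from 24.5 in control to 131 in knockout-labelled islets, 5.34-fold higher, rank 19 among 11802 genes. The control signal lay just above the floor, and when the floor was raised to the 70th percentile of each array the ratio became a bound of at least 0.97 on the log2 scale. The other endocytic receptors above the floor were higher by less. Cd14, the lipopolysaccharide co-receptor, was at 137 and 202 (1.47-fold), Cd68, a lysosomal membrane protein used as a macrophage marker, at 119 and 159 (1.34-fold), and Stab1, the scavenger receptor stabilin-1, at 34.8 and 47.6 (1.37-fold). Msr1, Cd163 and Folr2, markers of resident macrophages in many tissues, were under the floor on both arrays. Folr2 had the larger signal in control, 19.1 against 2.8.

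The start regions of Mrc1 and C1qb, the genes with the largest ratios among the receptors and the complement genes, are shown from RefSeq (GRCm38.p6), 250 bases before to 50 after the annotated start. Mrc1 lies at chr2:14229164-14229463 on the + strand and C1qb at chr4:136886151-136886450 on the - strand. Each is written in the direction of its gene, and capitals mark GGAAGT on either strand (here as its reverse complement), the core of sites for ETS factors such as PU.1, the product of Spi1.
Mrc1: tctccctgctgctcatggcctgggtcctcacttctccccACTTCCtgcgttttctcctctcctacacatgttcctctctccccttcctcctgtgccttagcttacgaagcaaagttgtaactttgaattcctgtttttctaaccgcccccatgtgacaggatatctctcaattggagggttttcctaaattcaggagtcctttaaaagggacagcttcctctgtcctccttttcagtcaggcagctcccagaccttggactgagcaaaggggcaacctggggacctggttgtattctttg
C1qb: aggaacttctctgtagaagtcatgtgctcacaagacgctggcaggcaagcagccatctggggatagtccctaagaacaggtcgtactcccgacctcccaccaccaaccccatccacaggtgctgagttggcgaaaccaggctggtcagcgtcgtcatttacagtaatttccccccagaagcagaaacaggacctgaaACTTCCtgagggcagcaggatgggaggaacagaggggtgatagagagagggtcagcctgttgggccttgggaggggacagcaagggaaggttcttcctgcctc
The match begins 211 bases before the start in Mrc1 and 53 bases before it in C1qb. RefSeq windows were found for 33 of the 45 genes, in 41 windows, and GGAAGT occurred in 16 of the 41 (39%) beside 23.8% of all 32851 windows. A match is a run of letters and not a binding site. Spi1 itself was under the floor on both arrays, at 14.5 and 17.3.

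Of the lysosomal and microbicidal genes, the proteases had the brightest probe sets and were higher. Lgmn, the asparaginyl endopeptidase legumain, went from 158 to 306 (1.94-fold), above the range of genes of like signal. Ctss, the protease cathepsin S that trims the class II invariant chain, went from 299 to 445 (1.49-fold), and Mpeg1, the pore-forming protein perforin-2, from 56.6 to 91.4 (1.61-fold). Laptm5, a lysosomal membrane protein of blood cells, was at 25.2 and 36.8 in its brightest probe set (1.46-fold). Lyz2, the lysozyme M gene of macrophages and neutrophils, was level at 64.0 and 63.6.

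Cybb, the catalytic subunit of the phagocyte oxidase, was close to the floor. Its brightest probe set gave 19.2 and 26.7, and 1422978_at gave 24.2 and 1.6, so these 2 probe sets point in opposite directions. Lysosomal genes that all cells use did not share the shift, with 8 of 16 higher, 8 lower and a median log2 ratio of 0.054. None of the 16 was at 2-fold, beside 1.54% of all genes higher by that much and 1.34% lower. In that list Ctsl, cathepsin L, had the largest ratio, from 3738 to 5636 (log2 ratio 0.59).

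The pan-leukocyte genes carried 2 of the ratios of at least 2-fold. Among the 4 of them above the floor on both arrays, 1 was 2-fold higher, beside 1.54% of all genes. Lcp1, the actin-bundling protein L-plastin, went from 39.5 to 89.2 (2.26-fold), and its other probe set 1448160_at from 21.0 to 39.9, a bound of at least 0.89 on the log2 scale. Itgb2, the beta-2 integrin chain shared by leukocyte integrins, was at 19.1 in control islets but at 54.4 in knockout-labelled ones, at least 2.52-fold higher. It passed the floor in the knockout-labelled array only, which fixed its direction. Coro1a, the actin regulator coronin-1A, was at 26.0 and 45.6 in its brightest probe set (1.75-fold) and at 25.6 and 29.9 in another. Cd53, a tetraspanin of leukocytes, was at 80.3 and 115 (1.43-fold).

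Other genes of this group were level or not measured. Ptprc, the common leukocyte antigen CD45, was at 44.1 and 52.7 (1.20-fold). Rac2, a small GTPase of blood cells, was at 22.7 and 20.7, next to the floor on both arrays. The integrin alpha chains Itgam and Itgax, which pair with Itgb2 and define CD11b and CD11c cells, were under the floor on both arrays, at 0.4 and 8.6 for Itgam and 12.2 and 4.6 for Itgax.

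Class II genes and Cd74 were higher, by amounts that differed between probe sets of 1 gene. Cd74, the invariant chain that escorts class II molecules, went from 177 to 320 (1.80-fold), above the range of genes of like signal, and H2-Eb1 from 160 to 244 (1.52-fold). For H2-Aa the brightest probe set 1435290_x_at was at 482 and 623 (1.29-fold), 1438858_x_at at 61.0 and 78.9 (log2 ratio 0.37) and 1452431_s_at at 67.4 and 181 (log2 ratio 1.43). For H2-Ab1 the brightest probe set 1450648_s_at was nearly level at 123 and 132 (1.07-fold), whereas 1451721_a_at was at 69.6 and 140 (log2 ratio 1.01) and 1425477_x_at at 27.5 and 63.8 (log2 ratio 1.21). All 8 of these probe sets had ratios above 1, and the choice of probe set decides whether H2-Aa and H2-Ab1 count as 2-fold higher.

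The start regions of H2-Aa, at chr17:34287774-34288073 on the - strand, and H2-Eb1, at chr17:34305617-34305916 on the + strand, are shown because class II genes are known to share promoter elements. Both are in the direction of the gene, and capitals mark CTGATTGG, the letters of the class II Y box.
H2-Aa: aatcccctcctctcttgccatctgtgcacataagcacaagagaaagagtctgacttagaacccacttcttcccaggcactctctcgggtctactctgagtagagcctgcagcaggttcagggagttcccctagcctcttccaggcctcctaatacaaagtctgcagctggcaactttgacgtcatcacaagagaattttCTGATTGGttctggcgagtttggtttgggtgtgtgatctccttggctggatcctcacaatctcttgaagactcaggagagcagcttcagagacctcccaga
H2-Eb1: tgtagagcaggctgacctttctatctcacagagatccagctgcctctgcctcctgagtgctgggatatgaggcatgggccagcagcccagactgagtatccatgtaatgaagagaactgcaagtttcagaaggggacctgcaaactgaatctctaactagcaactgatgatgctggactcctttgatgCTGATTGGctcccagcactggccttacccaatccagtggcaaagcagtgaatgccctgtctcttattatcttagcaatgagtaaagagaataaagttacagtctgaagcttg
The match begins 51 bases before the start in H2-Aa and 62 bases before it in H2-Eb1. Searched on both strands, CTGATTGG occurred in 3 of the 41 windows, the third being that of Irf8, and in 4.1% of all 32851 windows. No match of this motif overlapped one of GGAAGT in the 4 windows shown.

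The costimulatory genes Cd86 and Cd83 gave weak signals. Cd86 was at 30.1 and 15.3, a bound of at least 1.39-fold lower, and Cd83 was at 23.7 and 21.6. Both passed the floor in the control array only, which fixed their direction, so they give no contrast with the class II genes. Another probe set of Cd86 was under the floor on both arrays, at 2.7 and 8.9. Among 8 measured genes of the class II presentation pathway outside the 45, 7 were higher and 1 lower, with a median log2 ratio of 0.11. H2-DMa, which loads peptides on class II molecules, was at 22.5 and 34.5 (log2 ratio 0.62), and the lower gene, Cd40, a costimulatory receptor, went from 99.7 to 44.2, 2.26-fold lower. Ciita, the class II transactivator, passed the floor in the knockout-labelled array only, at 15.8 and 25.9, and was named after its values were seen.

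The group of macrophage identity and monocyte traffic genes had the smallest median log2 ratio of the 7 role groups. It was 0.052 over the 4 of 8 genes measured on both arrays, and those 4 did not move alike. Adgre1, the F4/80 antigen, was at 37.0 and 55.0 (1.49-fold) and Pf4, platelet factor 4, which some resident macrophages also express, at 63.5 and 69.0. Irf8, a transcription factor of dendritic cells and macrophages, was level at 26.5 and 26.2. Ccr2, the chemokine receptor of blood monocytes, was the lowest of the 28 genes, at 33.0 and 26.1 in its brightest probe set (log2 ratio -0.34). Its other probe sets were under the floor on both arrays, each with the larger signal in the knockout-labelled array. Aif1, Ly86, Spi1 and Cx3cr1 were under the floor on both arrays. With Trem2, Msr1, Cd163, Folr2, Itgam and Itgax they make up the 10 genes not measured, with brightest signals from 0.4 to 19.5, so several defining markers of macrophages and dendritic cells gave no ratio.

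**Figure D3:**
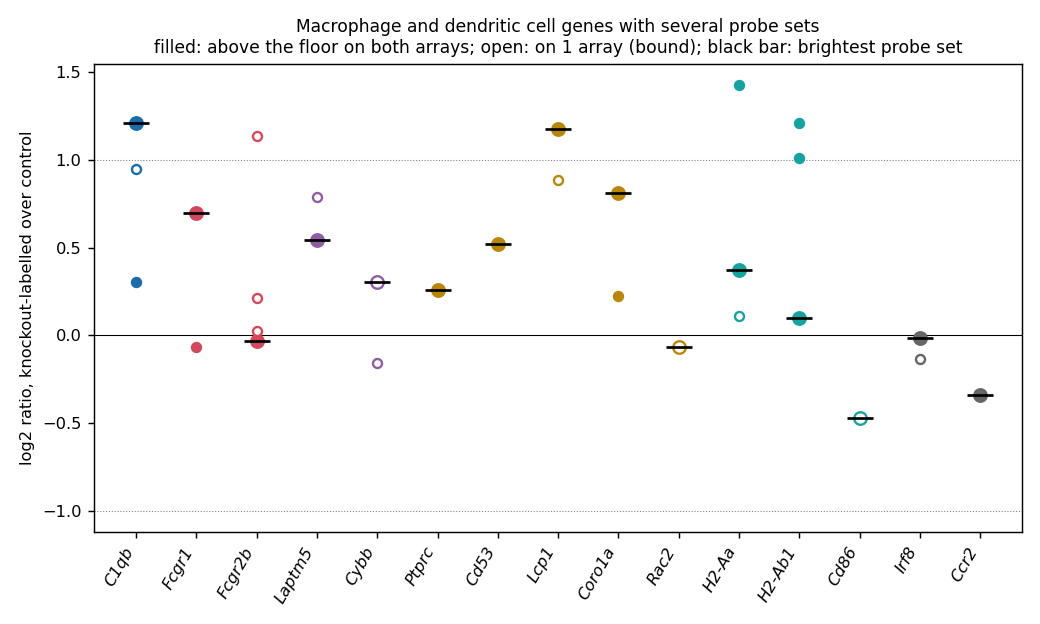
Log2 ratio of every probe set above the floor on at least 1 array for the 15 of 18 genes with several probe sets that had one, filled where both arrays passed the floor and open where the value is a bound, with a black bar on the brightest. Probe sets of H2-Aa span 0.11 to 1.43 and those of H2-Ab1 0.096 to 1.21.

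Where a gene had several probe sets, they did not give 1 value. The 5 genes with several probe sets above the floor on both arrays had SDs between probe sets of 0.41 (Coro1a), 0.54 (Fcgr1), 0.60 (H2-Ab1), 0.61 (H2-Aa) and 0.65 (C1qb) on the log2 scale. The median of that SD over 4719 genes was 0.21. Over all 35 probe sets of the 45 genes above the floor on both arrays, 30 were higher and 5 lower, with a median log2 ratio of 0.55. Among all 18275 probe sets of 1 gene above the floor on both arrays, 9193 were higher and 9049 lower, with a median log2 ratio of 0.0027. Of the 51 probe sets above it on at least 1 array, 10 were at least 2-fold higher, beside 1.88% of all such probe sets, and none was 2-fold lower, beside 1.29%. Of these 10, 3 passed the floor only in the knockout-labelled array, which fixed their direction. The other 7 were among the 35 above the floor on both arrays, beside 289 of all 18275 such probe sets.

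A wider list held 49 myeloid genes with a probe set outside the 45, of which 19 were under the floor on both arrays and 6 above it on 1. Of the 24 genes above the floor on both arrays, 20 were higher and 4 lower, where 49.8% of all such genes were higher. For this wider list the median log2 ratio was 0.19, smaller than the 0.55 of the main list. Its largest ratios were those of Pla2g7, a secreted phospholipase of macrophages, from 53.1 to 112 (2.11-fold), Gpnmb, a lysosome-linked glycoprotein, from 28.2 to 52.3 (1.85-fold), and the endotoxin receptor gene Tlr4, at least 1.85-fold higher at 17.4 and 40.1. Csf1r, the receptor of the macrophage growth factor, was at 140 and 160 (log2 ratio 0.19) and was named after its values were seen. With no floor, 31 of the 49 were higher and 17 lower, beside 49.5% higher over all genes.

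Markers of other white blood cells were mostly not measured. Of 14 T and NK cell markers, 10 were under the floor on both arrays, among them Cd3d, Cd3e, Cd3g and Cd4, named after their values were seen, and the list summed to 261 and 267. Its largest ratios were Il7r, the interleukin-7 receptor, from 26.2 to 58.0 (log2 ratio 1.15), Cd8a (0.69) and Zap70 (-0.29). B and plasma cell markers summed to 531 and 449, with 6 of 11 under the floor on both arrays. Of the 4 B and plasma cell genes above it on both arrays, 3 were slightly higher (median log2 ratio 0.11) and Jchain, the immunoglobulin joining chain, went from 242 to 189. Neutrophil markers summed to 293 and 224, with 7 of 11 under it, and S100a9 went from 177 to 118 (log2 ratio -0.58). Mast cell and basophil markers summed to 201 and 109, with 5 of 10 under it, and Kit went from 40.7 to 23.0 (log2 ratio -0.82). No marker gene of these lists was at exactly 0.

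Most measured markers of exocrine pancreas cells were lower on the same array. Of 9 acinar markers above the floor on both arrays, 8 were lower, 5 of them at least 2-fold, beside 1.34% of all such genes. The acinar list summed to 41630 in control and 21814 in knockout-labelled islets, with 3 of 12 markers under the floor on both arrays. Their largest ratios were those of the carboxyl ester lipase gene Cel (log2 ratio -1.16), Prss2 (-1.14) and Cpa1 (-1.12). Duct markers summed to 8685 and 7574, with 4 of 5 lower and 3 of 9 under the floor on both arrays. Those 3 were Sox9, Cftr and Muc1, and the higher gene was Epcam, at 1547 and 1885, all named after their values were seen. The largest duct ratio was that of Car2, from 57.8 to 11.2, at least 2.66-fold lower. Car2 passed the floor in the control array only, which fixed its direction. Endothelial markers summed to 1540 and 1520, with 4 of 12 higher, and stromal markers to 531 and 501. Of the 7 stromal markers above the floor on at least 1 array, 2 were at least 2-fold lower, beside 1.44% of all genes. These were decorin (Dcn), at least 2.84-fold, from 61.6 to 19.8, and the collagen gene Col3a1, from 46.0 to 22.5. Dcn passed the floor in the control array only, which fixed its direction. The pericyte gene Rgs5, at 197 and 246 and named after its values were seen, was higher. The acinar transcription factor gene Bhlha15, named after its values were seen, was level at 714 and 741. The part of these marker differences in the macrophage gene ratios was not tested.

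**Figure D4:**
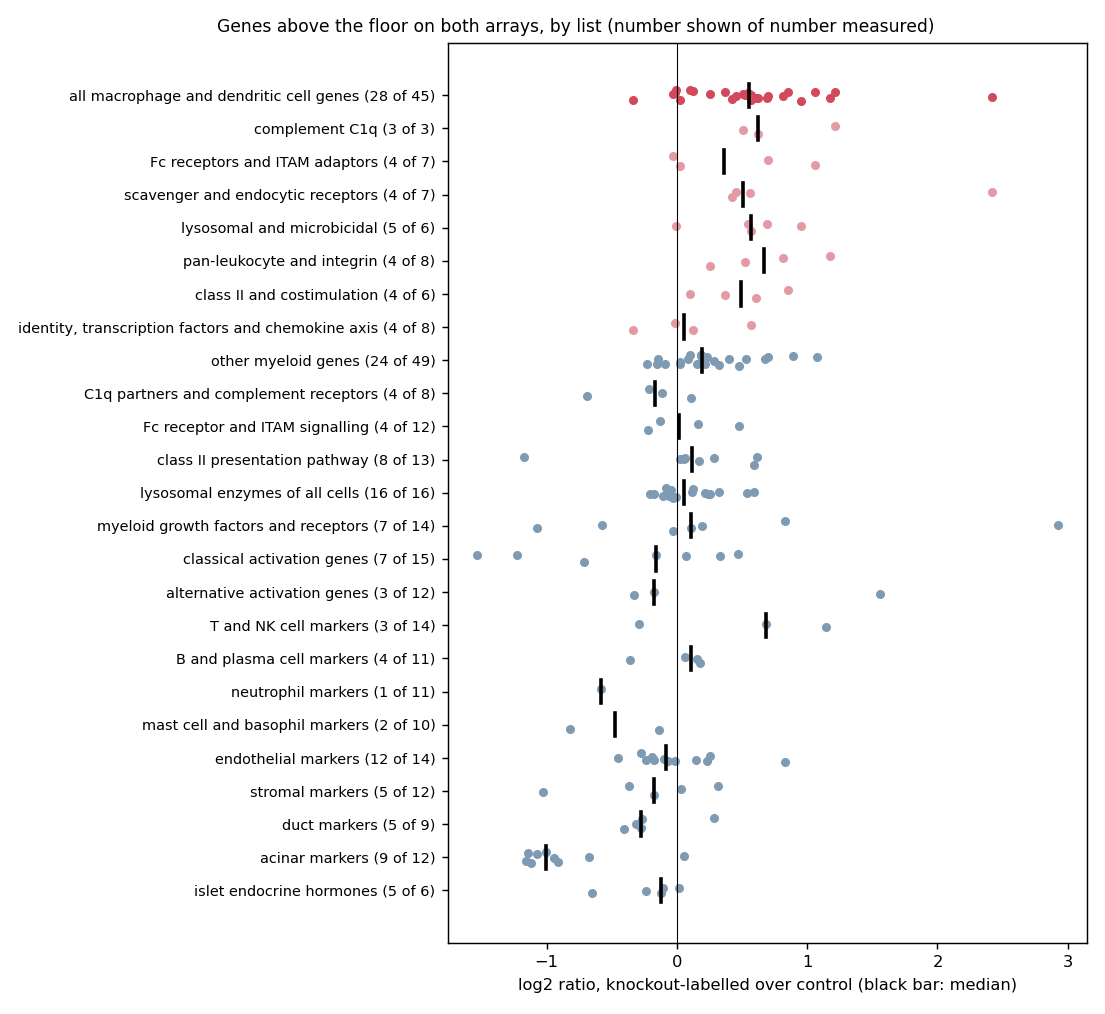
Log2 ratio of each gene above the floor on both arrays, grouped by role (pink) for the macrophage and dendritic cell genes (red) and by list (blue) for other genes, with the median as a black bar. The red points have their median at 0.55 and the other myeloid genes at 0.19, and the acinar markers lie mostly to the left of 0.

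The count of 2-fold genes rested on weak signals. At a floor of the 70th percentile (67 in control and 68.6 in knockout-labelled islets), 17 of the 45 genes were above it on at least 1 array and 10 on both. None of the 17 had a ratio or bound of 2-fold or more, beside 1.17% of all genes at that floor. For the 6 genes at 2-fold under the main floor, the raised floor fixed this outcome. Their highest knockout-labelled signal, that of Mrc1 at 131, was less than 2-fold above the control floor of 67. Genes above that floor on 1 array only gave bounds, so their ratios could be larger. All 10 had a ratio above 1, beside 49.1% of all genes, with a median log2 ratio of 0.56. With a pseudocount of 16 and no floor, Mrc1 and Itgb2 alone of the 45 reached 2-fold, beside 1.44% of all genes.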

How the data were processed

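Islet RNA was measured on 1 Affymetrix array per group. Per the submitters' processing notes, MAS5 was used. The table deposited by the authors holds 1 linear intensity per probe set, the MAS5 signal, and the version, scaling target and detection calls are not given in the sources used here. They were used as deposited, since both medians were close (21.6 and 21.7). The number of arrays limits the precision.

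Probe sets were named through the platform annotation (45037 probe sets, 34945 with 1 gene, 932 with several, 9160 with none), using those with 1 gene. A gene was its brightest probe set by mean log2 signal. Signals at or under the 50th percentile of an array were raised to it. Genes not above it on either array were left out, and a gene above it on 1 array only gives a bound ("at least"). Ratios are knockout-labelled over control, with a limit of 2-fold and no test. The calculations used Python 3.11.15, pandas 2.3.3, numpy 2.4.6 and statsmodels 0.14.6, and were tested on simulated data.

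The 45 genes and the 17 other lists were chosen with earlier results of these data known. Of 269 other symbols, 234 had a 1-gene probe set. The rule for names took all 45 genes, Zbtb20, the hormone genes and up to 3 genes of each other list by size of ratio, and names outside it are said to be so. Alternatives were other floors, a pseudocount, scalings, probe set means and size limits.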

Additional observations from a re-analysis of the deposited data

How the results depend on the processing

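No paired analysis was possible because each group has 1 array, and no replicate could be left out. A median is said to move when it shifts by more than 0.21, the median SD between probe sets of 1 gene. Median division, quantile normalization, lowess and probe set means moved no count by over 1.5 times and no median by that much. The number of 2-fold higher genes was 6 under these scalings, beside 1.77% to 1.79% of all genes. With probe set means, which dropped C1qb, it was 5, beside 1.61%. The floors and size limits did move results. The number at least 2-fold higher was 0 with the floor at the 70th percentile (1.17% of all genes) and 2 with a pseudocount of 16 (1.44%). That floor fixed the loss of the 6 genes, since none of their knockout-labelled signals lay 2-fold above it. At a limit of 1.5-fold 13 genes were higher (6.91% of all genes), and at 3-fold 1, Mrc1 (0.432%). With the floor at the 30th percentile, 1 of 43 genes, Folr2, was 2-fold lower, beside 4.18% of all genes. The median of the Fc receptor and adaptor group at that floor was 0.77, with Fcer1g and Fcgr3 now included. The class II and costimulation median was 0.23 at that floor and 0.22 with the pseudocount, since Cd83 and Cd86 then entered it. The number with a ratio above 1 was 10 of 10 at the 70th percentile, beside 49.1% of all genes. There the Fc receptor and adaptor group and the identity and chemokine group had no gene above the floor on both arrays and so no median. Of the 35 genes with a ratio, 33 kept their sign under the settings run on single probe sets, the exceptions being Clec7a and Fcgr2b, both near 0. These settings reuse the same 2 signals of a gene, and 7 of the 35 passed the main floor on 1 array only, so the count is no independent check. Other probe sets did not enter it, and those of Fcgr1 and Cybb gave ratios of opposite sign.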

Other observations

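Genes of macrophage activation states were mostly under the floor. Of 12 genes with a probe set tied to alternative activation, 9 were under it on both arrays, and of the 3 measured Cd36, a fatty acid and lipoprotein receptor that other cells also express, went from 23.7 to 69.9 (log2 ratio 1.56), Tgm2 had a log2 ratio of -0.33 and Arg1 one of -0.18. Of 15 genes with a probe set tied to classical activation, 8 were under it, 3 were higher and 4 lower. Its largest ratios were those of the cytokine gene Il6, from 400.4 to 138 (log2 ratio -1.53), the prostaglandin synthase gene Ptgs2, from 151 to 64.3 (-1.23), and the cytokine signalling inhibitor gene Socs3, from 1073 to 653 (-0.72). Islet endocrine and other cells can express these 3 genes, and the source cell cannot be told from whole islets.

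Among growth factors and receptors of myeloid cells, 4 of 7 genes above the floor on both arrays were higher and 3 lower. Csf2rb, the shared receptor chain for GM-CSF, interleukin-3 and interleukin-5, went from 76.3 to 581 (log2 ratio 2.93). The granulocyte growth factor gene Csf3 was at 69.1 and 18.3, a bound of at least 3.18-fold lower, and the monocyte chemokine gene Ccl2 was at 81.0 and 38.5 (log2 ratio -1.07).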
